A study of Mus musculus with 11 samples.

Results

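The library labelled NELFE is 1 of 4 that carry subunits of the negative elongation factor NELF, and it was set against the other 3, NELFA, NELFB and NELFCD. These 4 were chosen by their labels from 11 libraries, and NELFE holds 18753 of the 831994 distinct integration sites of the whole set. All libraries came from mouse embryonic fibroblasts (MEF) of strain C57BL/6 that lack LEDGF (genotype LEDGF-/-), the host protein that normally tethers HIV integrase to chromatin. Cells received a plasmid encoding the named protein joined to LEDGF-IBD by electroporation, were infected with HIV 24 hours later and were grown for 3 more days, so that sites serve as a surrogate for where the fused protein sat on chromatin. The other 7 libraries carry SPT5, INTS3, INIP, NABP1, NABP2, INTS9 and INTS11 in the same cells. Integration not directed by a fusion was not measured, since every library analysed here carries one, and the fused protein is made from a plasmid rather than from its own gene.

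NELF holds RNA polymerase II in a paused state shortly after initiation, together with DSIF, of which SPT5 is the large subunit. NELF-A, NELF-B and NELF-C/D form the core of the complex, and NELF-E is joined to it through NELF-B and carries an RNA recognition motif that binds the nascent transcript. NELF also binds the nuclear cap-binding complex and takes part in the 3′ end formation of replication-dependent histone mRNAs, which end in a conserved stem-loop in place of a poly(A) tail. The comparison asks whether the library of the RNA-binding subunit was distributed over genes like those of the core.

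Each subunit has 1 library, so 1 value stands against 3 and an exact permutation test over libraries cannot go below p = 0.25. No such test is therefore printed, values are given for every library, and a spread (SD, n = 3) is that between the 3 other subunits, which may be technical. Read names place the 4 libraries on 1 flow cell, with NELFA on lane 4, NELFB on lane 5, NELFCD on lane 6 and NELFE on lane 7, so subunit and lane cannot be told apart. The other libraries held 30109 (NELFA), 30960 (NELFB) and 41265 (NELFCD) sites before they were thinned to 18753, and the SPT5, Integrator and SOSS libraries, whose counts are given for context, were thinned to the same size. In the thinned libraries 1 site is 5.33 sites per 100000, and a count of 0 allows up to 16.0 per 100000. The median of the first number after the read name was 7 in NELFE and 44, 14 and 13 in NELFA, NELFB and NELFCD. As genomic positions, the sites carry no expression values; windows of 16 fibroblast genes held 30 NELFE sites, 7.89 times a uniform density, and those of 4 blood genes and 4 hepatocyte genes held 0. NELFA, NELFB and NELFCD held 1, 2 and 2 sites in the blood genes and 2, 1 and 1 in the hepatocyte genes. The windows of these short lists are thus too small for a count of 0 to show depletion. NELFE sites in 5 neuronal genes stood at 1.26 times uniform density.

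The stem-loop that ends histone mRNAs is shown for 3 genes whose windows held more sites in NELFE than in any other NELF library and for 2 genes whose windows held fewer, because it is the RNA element at which histone mRNA 3′ ends are formed. Capitals mark the 16-base pattern, and all are read 5′ to 3′ along the gene on mm9.
Hist2h2ab, chr3:96024251-96024276, plus strand: aaaaaGGCTCTTTTAAGAGCCaccaa
Hist4h4, chr6:136752514-136752539, minus strand: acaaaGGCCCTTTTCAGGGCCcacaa
Hist1h2bb, chr13:23839067-23839092, plus strand: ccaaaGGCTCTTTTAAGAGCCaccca
Hist1h3i, chr13:21874784-21874809, minus strand: caaaaGGCTCTTTTCAGAGCCccctc
Hist1h1b, chr13:21871701-21871726, minus strand: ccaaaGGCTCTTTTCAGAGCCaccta
The first 3 are of genes with more NELFE sites and the last 2 of genes with fewer. The pattern searched was GG, any 2 bases, CTTTT, any 1 base, AG, any 2 bases and CC, on the gene's own strand, from 150 bases before to 400 bases past the annotated end. It was found in 42 of the 67 replication-dependent histone genes and in 4 of 22283 other protein-coding genes (0.018%). Its letters took 5 forms, of which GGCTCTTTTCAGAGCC stood in 24 genes. A gene without a match has no such letters in this window, and nothing follows about its RNA; several annotated histone genes cover only the coding sequence.

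NELFE sites were fewer at gene starts than those of the other subunits. The share of sites within 1 kb of a protein-coding start was 13.4% in NELFE (95% interval 12.9 to 13.9), 19.99% in NELFA, 23.0% in NELFB and 22.0% in NELFCD. The difference of NELFE from the mean of the others, 21.6% ± 1.52 (SD, n = 3), was -8.25 percentage points, and its interval did not overlap theirs. The share in SPT5, the partner in pausing, was 22.5%, and in the 6 Integrator and SOSS libraries it ran from 3.88% to 8.49%. NELFE thus stood between the other NELF libraries and those libraries at starts. From 1 to 5 kb the 4 NELF libraries were interleaved, at 15.03% in NELFE, 15.1% in NELFA, 16.2% in NELFB and 13.5% in NELFCD.

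Leaving out sites within 5 kb of histone genes, most of which are annotated as short genes, widened the gap. NELFE then had 12.2% of its sites within 1 kb of a start, and the others 21.1% ± 1.80 (SD, n = 3). The ratio of NELFE to the mean of the others was 0.58 over all 22283 non-histone starts.

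**Figure D1:**
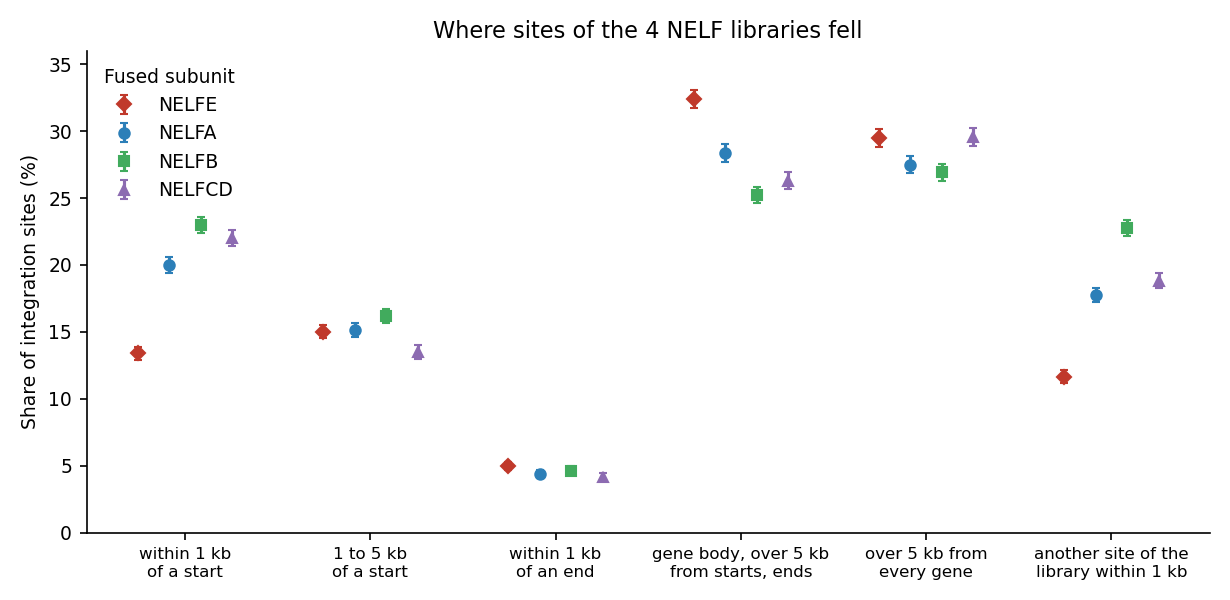
Share of the 18753 sites of each thinned library (y axis, percent) in 6 kinds of place (x axis), with exact binomial 95% intervals. NELFE lies under the 3 other subunits within 1 kb of starts (13.4%) and in sites with a neighbour within 1 kb (11.7%), and above them in gene bodies (32.4%).

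The lower share held in each class of starts that was examined. At the 9830 starts rich in CpG, NELFE had 1686 sites against 2721 in NELFA, 3268 in NELFB and 3118 in NELFCD, a ratio of 0.56 to their mean. The ratio was 0.64 at the other 12453 starts. Starts were also divided by SPT5 sites within 1 kb: the ratio was 0.71 where SPT5 had none, 0.54 with 1 to 2 sites, 0.51 with 3 to 5 and 0.61 with 6 or more. In all of these classes the NELFE count lay under all 3 others. A start counts toward the class of its own window, and a site near starts of different classes counts in each.

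Within the starts the 4 libraries also differed in shape. In 200-base bins along transcription, NELFE peaked 200 to 400 bases past the start at 1760 sites per 100000, NELFB there at 3977 and NELFCD at 3575. NELFA peaked in the first 200 bases, at 2583 sites per 100000, as did SPT5 at 3372. All 4 NELF libraries had a dip in the 200 bases before the start. The dip, as a ratio to the mean of the bins on either side (from 400 to 200 bases before and from 200 to 400 past), was deepest in NELFCD (0.36) and NELFB (0.40), shallower in NELFE (0.69) and shallowest in NELFA (0.83). NELFE therefore had the lowest peak of the 4, and a dip between those of NELFA and the other pair. The number of sites in the 1 kb past the start over that in the 1 kb before was 1.27 in NELFE, within the range of 1.17 (NELFA) to 1.49 (NELFB).

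**Figure D2:**
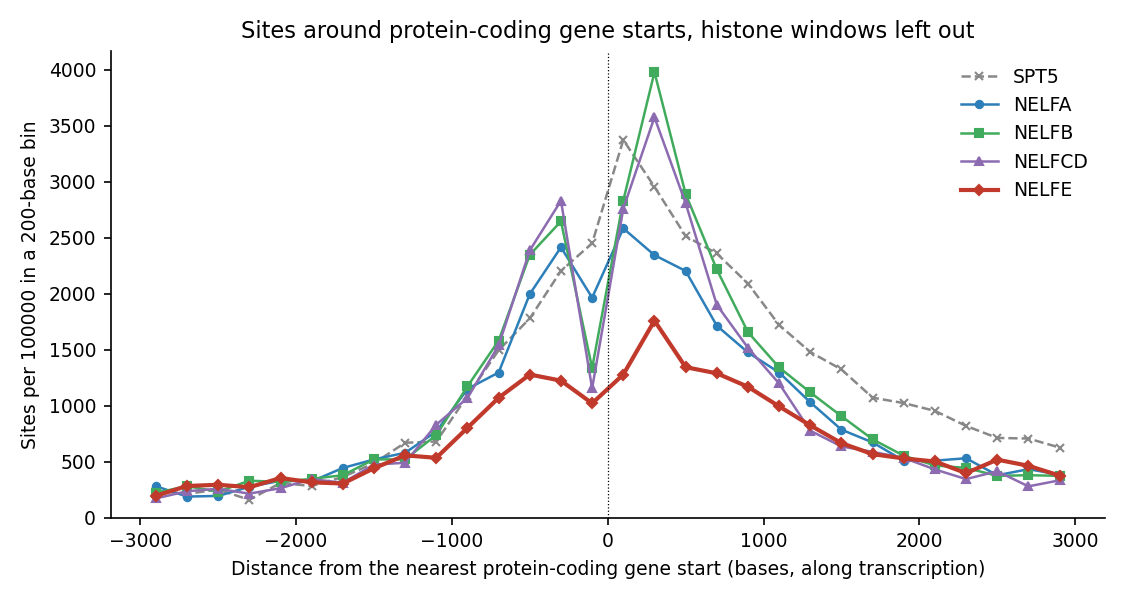
Sites per 100000 in 200-base bins (y axis) by distance from the nearest protein-coding gene start (x axis, bases), with histone windows left out, for the 4 NELF libraries and SPT5. The NELFE peak (1760) is the lowest of the 5 lines, while beyond about 1 kb upstream the lines run close together.

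The first number after the read name differs between the libraries, so shares were also read within ranges of it. Near non-histone starts NELFE had 12.5% of sites with a number from 2 to 4, 12.7% from 5 to 9, 11.6% from 10 to 29 and 9.47% from 30 up. The lowest share of another subunit in any range was 18.1%, in NELFA from 2 to 4. NELFE was therefore lower at starts within every range. Sites had a mean GC content over 201 bases of 45.1% in NELFE, against 46.2% in NELFA, 47.4% in NELFB and 46.8% in NELFCD; its part in the result was not tested.

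Deep in genes NELFE had more sites than the other subunits, while its total inside genes was close to theirs. Shares are of a fixed total, so a lower share at starts leaves a higher share elsewhere. The gene body share was not adjusted for this. The share inside protein-coding genes was 53.5% in NELFE and 53.1%, 53.0% and 51.5% in NELFA, NELFB and NELFCD. Inside genes and more than 5 kb from every start and end, NELFE had 32.4% of its sites, NELFA 28.4%, NELFB 25.2% and NELFCD 26.3%. NELFE lay 5.74 percentage points above the mean of the others, 26.6% ± 1.59 (SD, n = 3), and its interval (31.7 to 33.0) did not overlap theirs. SPT5 had 25.4% there, and the 6 Integrator and SOSS libraries 34.4% to 41.3%. More than 5 kb from every gene, NELFE (29.5%) lay within the range of the others, 26.9% in NELFB to 29.6% in NELFCD.

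At gene ends the side on which NELFE lay depended on the window and on the histone genes. Within 1 kb of a protein-coding end the shares were 4.99% in NELFE, 4.40% in NELFA, 4.64% in NELFB and 4.15% in NELFCD, so NELFE was highest. Without the histone windows they were 3.48% in NELFE and 3.52% ± 0.20 (SD, n = 3) in the others, and NELFE lay within their range. Within 5 kb of an end the difference was on the other side, at 17.0% in NELFE against 17.8% ± 1.26 (SD, n = 3). Without the histone windows NELFE was below all 3 within 5 kb, at 14.95% against 15.8% in NELFA, 17.7% in NELFB and 15.9% in NELFCD, though its interval (14.4 to 15.5) overlapped those of NELFA and NELFCD.

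NELFE sites were also more scattered. Of its 18753 sites, 11.7% had a neighbour of their own library no more than 1 kb away, against 17.8% in NELFA, 22.8% in NELFB and 18.8% in NELFCD. Without the histone windows the share was 9.61% in NELFE and 18.6% ± 2.56 (SD, n = 3) in the others. NELFE sites lay within 1 kb of a site of NELFA in 13.7%, of NELFB in 14.4% and of NELFCD in 12.8% of cases. Counted from the other side, 14.3% of NELFA, 16.6% of NELFB and 13.7% of NELFCD sites lay within 1 kb of a NELFE site. For pairs among the others the shares, counted from either side, ran from 17.2% (NELFA with NELFCD and the reverse) to 21.1% (NELFB with NELFCD). Sites near starts were not left out of any of these counts. How far the differences follow from the lower NELFE share at starts was not tested.

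Histone genes held more NELFE sites than sites of any core subunit. The windows of the 67 replication-dependent histone genes, merged to 17 loci that make up 0.0146% of the genome, held 453 NELFE sites, 323 NELFA sites, 347 NELFB sites and 233 NELFCD sites in libraries of equal size. This is 2416 sites per 100000 in NELFE (exact Poisson 95% interval 2198 to 2649) against 1605 ± 320 (SD, n = 3) in the others, a ratio of 1.505. As density over a uniform genome, NELFE stood at 166-fold, NELFA at 118-fold, NELFB at 127-fold and NELFCD at 85.3-fold. The NELFE interval lay above the highest of the others, whose own upper bound was 2056 sites per 100000 in NELFB. SPT5 held 99 sites in the same windows and the Integrator and SOSS libraries 12 to 58, so all 4 NELF libraries were above them. The share of sites in histone windows was 2.17% to 2.56% in NELFE over the 4 ranges of the first number, and at most 1.97% in the others.

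By locus, NELFE was above all 3 others in 9 of the 17, below all 3 in 1 and within their range, or at 0 with them, in 7. Over the 1399 regions of 1 Mb that passed the filter on low counts, NELFE was above all 3 in 21.4% and below all 3 in 20.7%. In 8 of the 9 loci NELFE was also above the others both without thinning and with another random thinning, the exception being Hist1h4j. The size of the gap changed with the thinning, being smaller without it at some loci and larger at others. On chromosome 3 the 3 Hist2 loci were all among the 9. From Hist2h2ab to Hist2h2be (96018839 to 96032661) NELFE had 22 sites against 6 in NELFA, 11 in NELFB and 8 in NELFCD. From Hist2h4 to Hist2h2bb (96060627 to 96087924) it had 34 against 13, 18 and 11 in the same order. Without thinning the gap at this locus was smaller, at 181 sites per 100000 in NELFE against 103, 93.7 and 94.5. Between these loci, from Hist2h2aa2 to Hist2h3c1, NELFE had 26 sites against 14, 22 and 14. At Hist4h4, a lone H4 gene on chromosome 6, NELFE had 16 sites against 6, 8 and 3. At the Hist3 pair on chromosome 11 the counts were closer, 22 against 13, 17 and 15. The loci outside chromosome 13 were thus all above the range of the others, by ratios to their mean of 1.47 to 2.82 in the libraries thinned with seed 1.

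On chromosome 13, which holds the Hist1 genes, the loci differed. The largest, from Hist1h4h to Hist1h1e (23617919 to 23719371), had 137 NELFE sites against 95 in NELFA, 93 in NELFB and 69 in NELFCD. The locus from Hist1h1c to Hist1h1a had 82 against 61, 58 and 45, and that from Hist1h2ah to Hist1h2bj had 30 against 16, 18 and 17. The locus from Hist1h1b to Hist1h2bp (21866752 to 21886082) went the other way, with 19 NELFE sites against 32 in NELFA, 33 in NELFB and 21 in NELFCD. Its place below NELFCD rests on the random thinning: with another seed NELFCD had 18 sites there, and without thinning NELFE had 101 sites per 100000 and NELFCD 99.4, while NELFA and NELFB stayed higher. With the other seed no locus was below all 3, and without NELFCD there were 4. Nearby, from Hist1h2bl to Hist1h2bm, NELFE had 23 sites against 21, 23 and 7, a tie with NELFB.

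**Figure D3:**
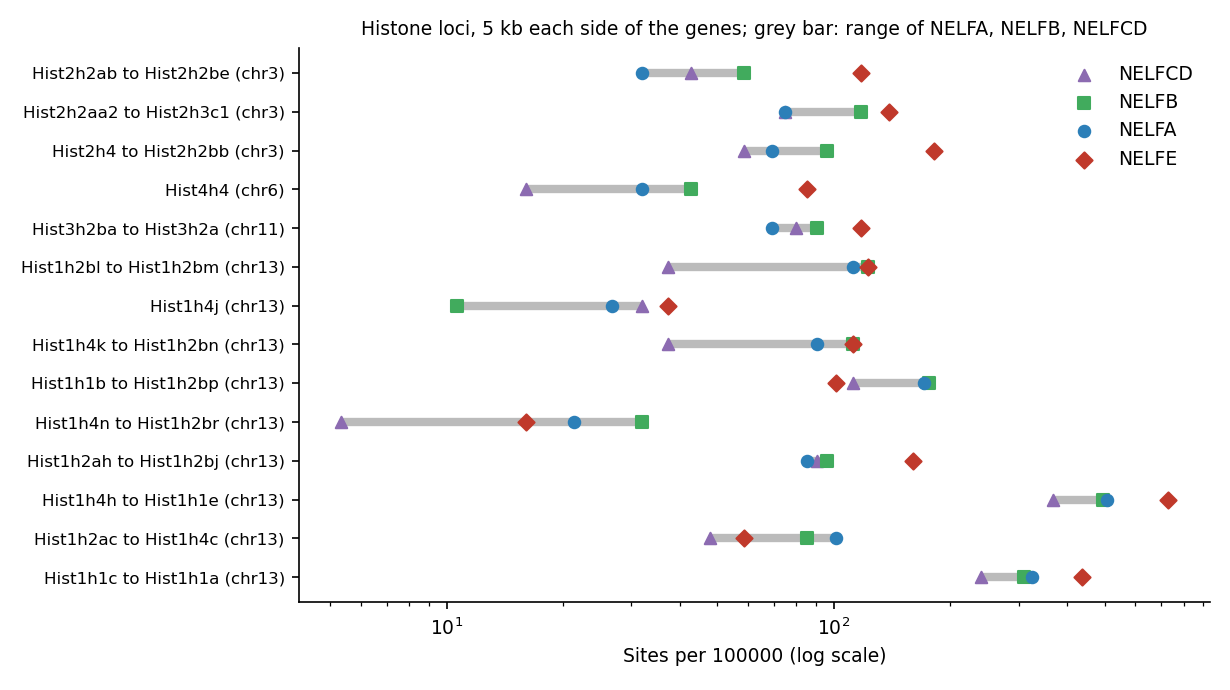
Sites per 100000 (x axis, log scale) in 14 histone loci (rows) for the 4 thinned NELF libraries, with the range of NELFA, NELFB and NELFCD as a grey bar; the 3 loci with at most 2 sites in all 4 libraries together are not drawn. NELFE lies past the upper end of the bar in 9 rows and past the lower end in 1, Hist1h1b to Hist1h2bp.

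Counted by single gene, NELFE was above all 3 others in 43 of the 67, below all 3 in 4 and within their range in 20, of which 5 had no site in any NELF library. Of the 67, 56 passed the filter on low counts. Over all 328 genes that passed, these 56 included, NELFE was above the others in 26.5% and below them in 22.6%. Neighbouring histone windows overlap and share sites, so these genes are not independent counts. The 4 genes below were Hist1h1b, Hist1h3i, Hist1h2an and Hist1h2bp, all of 1 locus. That count was 7 without thinning and 12 without NELFCD. Hist1h3i, an H3 gene, had 18 NELFE sites against 30, 31 and 21 in NELFA, NELFB and NELFCD. Hist1h2bb, an H2B gene, had the most of the histone genes, 36 against 24, 22 and 17. Hist2h2ab, an H2A gene, had 21 against 5, 7 and 4, and its neighbour Hist2h2ac, whose window overlaps, had the same counts.

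All 5 histone classes were higher in NELFE in sum. The ratio to the mean of the others was 1.34 for the 6 linker histone H1 genes, 1.41 for the 19 H2A genes, 1.52 for the 18 H2B genes, 1.47 for the 11 H3 genes and 1.52 for the 13 H4 genes. NELFE was above all 3 others in 9 of the 11 H3 genes and in 10 of the 13 H4 genes, and in 3 of the 6 H1 genes. Genes of different classes lie side by side, so the classes share sites.

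The stem-loops shown above were present on both sides of this comparison. NELFE was above the others in 27 of the 42 genes with the pattern and in 16 of the 25 without it, with median counts of 20 and 21 sites. Around the 42 stem-loops, 250-base bins were counted along transcription. In the first 250 bases past the stem-loop NELFE had 42 sites, NELFA 28, NELFB 4 and NELFCD 11. In the 250 bases before it the counts were 19, 13, 8 and 6 in the same order. NELFE and NELFA were thus higher than NELFB and NELFCD just past the stem-loop, where NELFB had fewer sites than in any other bin within 1 kb. Of the sites within 1 kb on either side, 59.1% lay past the stem-loop in NELFE (exact binomial 95% interval 52.2 to 65.7), 55.7% in NELFA, 51.5% in NELFB and 62.4% in NELFCD, so this side share did not set NELFE apart.

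**Figure D4:**
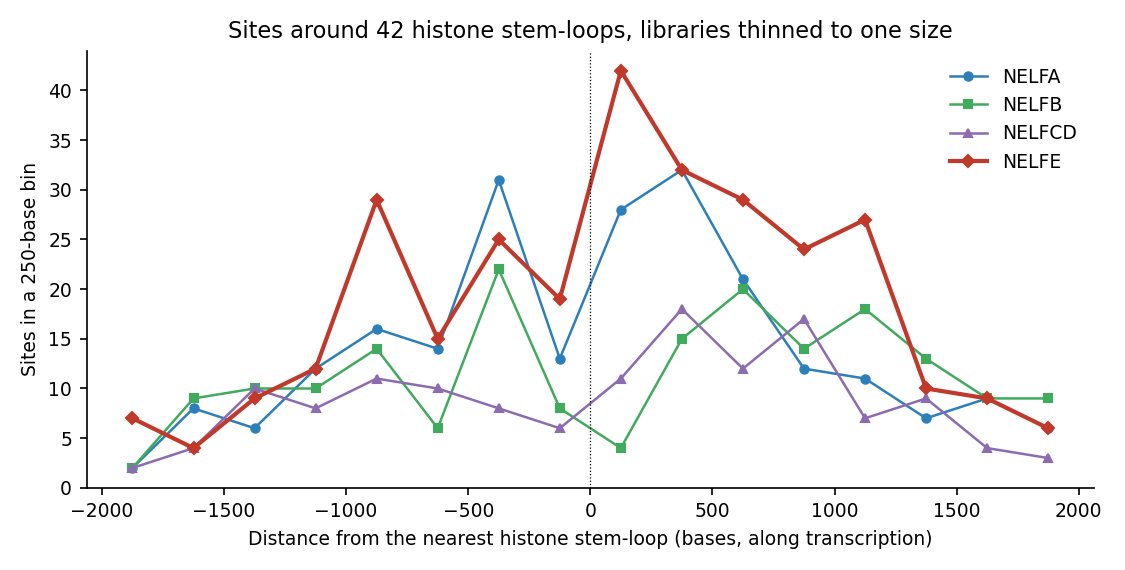
Sites in 250-base bins (y axis) by distance from the nearest of 42 histone stem-loops (x axis, bases along transcription) in the 4 thinned NELF libraries. In the first bin past the stem-loop NELFE has 42 sites and NELFB 4.

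The small nuclear RNA (snRNA) genes transcribed by RNA polymerase II, whose 3′ ends are cut by Integrator, held somewhat more NELFE sites than the mean of the others, by an amount that depended on the window. Windows of 438 such annotated genes held 127 NELFE sites, 126 NELFA sites, 94 NELFB sites and 110 NELFCD sites. NELFE stood at 677 per 100000 (exact Poisson 95% interval 565 to 806) against 587 ± 85.3 (SD, n = 3), and its interval took in NELFA and NELFCD. At the 49 genes in tandem, with copies of 1 family within 50 kb, the counts were 67 in NELFE, 68 in NELFA, 52 in NELFB and 52 in NELFCD. INIP with 88, NABP2 with 91 and INTS11 with 83 were above all of these, and SPT5 had 25. Most annotated snRNA genes are copies of a few families, and at near-identical copies the mapping of sites is uncertain.

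Of the 25 snRNA loci with the most NELF sites, NELFE was above all 3 others in 9, below in 3 and within their range in 13. Over the 328 genes that passed the filter on low counts, NELFE was above all 3 in 26.5% and below in 22.6%. Histone genes made up 43 of the 87 above and 4 of the 74 below, so they raise the first share. The 25 loci were ranked by a total that includes NELFE, and many held few sites in each library. All 3 loci given here were picked by their values, U11 by the rule for large differences and the U5 and U2 pairs after their values were seen. At a U5 pair on chromosome 9 (65039379 to 65054648) NELFE had 13 sites against 4 in NELFA, 6 in NELFB and 8 in NELFCD. At U11, an RNA of the minor spliceosome, on chromosome 4, it had 12 against 7, 3 and 2. At a U2 pair on chromosome 11 (101498062 to 101512244) it had 6 against 9, 8 and 7. Within 1 kb of the snRNA genes NELFE had 92 sites, NELFA 77, NELFB 50 and NELFCD 53. This is 491 per 100000 in NELFE (exact Poisson 95% interval 395 to 602) against 320 ± 78.9 (SD, n = 3), a ratio of 1.53, and the interval took in NELFA but neither NELFB nor NELFCD.

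Over single genes no difference passed the threshold. In limma, 328 genes with 5 kb each side were tested, 0 had an adjusted p under 0.05 (0% of them in either direction), and at an unadjusted p under 0.05 there were 22 higher and 17 lower in NELFE. The median difference (NELFE minus the mean of the others, log2) was 0.02 over all 328 genes, 0.76 over the 56 histone genes and -0.14 over the 272 others. Of those 272, NELFE was above the others in 44 and below them in 70. Of the 22 genes higher at an unadjusted p under 0.05, 20 were histone genes, many of whose windows overlap and share sites. The rest were Gm15444 and H2afj, whose windows overlap those of histone genes. Over 1399 regions of 1 Mb, 0 passed (0%) and 12 were higher and 41 lower at an unadjusted p under 0.05.

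The 2 largest differences in the direction of NELFE were at histone genes, followed by genes of other kinds. Hist2h2ab and Hist2h2ac had a log2 difference of 1.98 ± 0.68 (SE; limma adjusted p = 0.35). Fam190a, a gene of 1.202 Mb on chromosome 6, had 13 NELFE sites against 3, 3 and 4. Gm15444, a model whose window overlaps that of Hist2h2ab, had 22 against 5, 11 and 4. Tuba1a, an alpha-tubulin gene, had 10 against 5, 4 and 1, and U11, given above, came next among the genes named here. Hist4h4 had a log2 difference of 1.57 ± 0.72 (SE), and H2afj, the gene of a histone H2A variant next to it with an overlapping window, had 15 sites in NELFE against 6, 7 and 3. Snd1, the gene of a Tudor domain nuclease, had 10 against 2, 6 and 3. These small counts carry wide errors, and each limma adjusted p was 0.35 or more.

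Genes lower in NELFE were led by Stat6, which encodes the transcription factor of interleukin-4 signalling (chromosome 10, 127080042 to 127098013). It had 1 site in NELFE, 7 in NELFA, 6 in NELFB and 15 in NELFCD, a log2 difference of -2.89 ± 0.77 (SE), and the lowest limma adjusted p of all genes, 0.060. Mknk2, the gene of a kinase of translation factor eIF4E, had 2 against 9, 8 and 7. Dot1l, the gene of the histone H3 lysine 79 methyltransferase, had 2 against 4, 7 and 13. Midn had 1 against 5, 8 and 8, and SPT5 had 21 sites there. On chromosome 17, Thoc6 (a THO subunit of mRNA export), Hcfc1r1, Tnfrsf12a (the TWEAK receptor) and Cldn6 (a claudin of tight junctions) lie side by side within 23805581 to 23819413 and share sites. Each had 2 NELFE sites against 7 to 9 in each other subunit. Gm15943 and Mrpl33 completed the 10, with 1 and 2 NELFE sites.

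**Figure D5:**
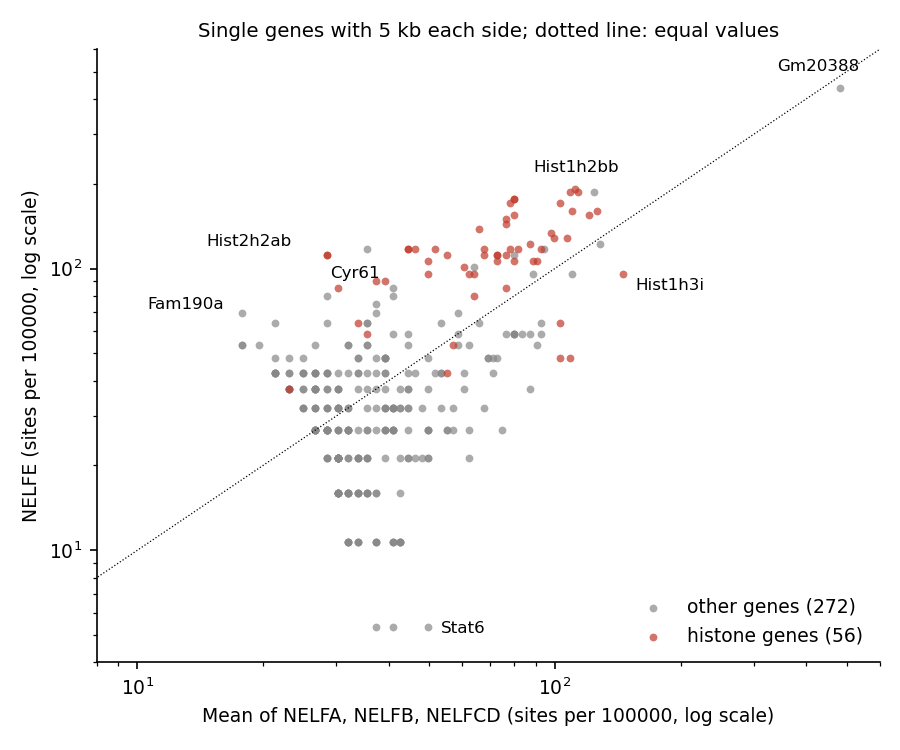
Sites per 100000 in NELFE (y axis) against the mean of NELFA, NELFB and NELFCD (x axis), both on log scales, for 328 genes with 5 kb each side; the dotted line marks equal values. Of the 56 histone genes (red), 43 have NELFE above all 3 others, while Stat6 has 1 NELFE site.

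Long annotated models with many sites were close between libraries. Gm20388, a model of 4.43 Mb on chromosome 8, had 82 NELFE sites against 87, 98 and 86, and Fgfr2, annotated over 3.01 Mb on chromosome 7, had 23 against 26, 25 and 21.

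Groups of genes with other roles were counted over all their members. Long nuclear RNA genes Neat1 and Malat1 together had 26 NELFE sites, within the range of 19 (NELFA) to 34 (NELFB). Immediate early genes, which respond to serum within minutes, had 75 in NELFE and 75, 91 and 68 in NELFA, NELFB and NELFCD over 26 genes. Cyr61, which encodes a matrix protein, was above the others there with 16 against 12, 7 and 4, and Junb, an AP-1 subunit, was below with 5 against 7, 12 and 6. Over 14 heat shock genes NELFE had 40 against 26, 52 and 28. Hspa1b, an inducible HSP70 gene, had 12 against 7, 17 and 6, and Hspa8, the constitutive one, had 8 against 5, 7 and 3. None of these lists stood outside the range of the others in sum.

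Housekeeping genes of translation were lower in NELFE than in NELFB and NELFCD. The 82 ribosomal protein genes had 65 NELFE sites, 57 in NELFA, 108 in NELFB and 100 in NELFCD, and 191 in SPT5. The 9 snoRNA host genes found of 11 names had 11 in NELFE, below 16, 26 and 21, and 49 in SPT5. NELFE stood at 7.77 times uniform density over the ribosomal protein genes, and the others at 10.6 on average.

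Genes of elongation control, the machinery in which NELF works, had 45 NELFE sites against 35, 38 and 30 over 28 annotated genes. NELFE was above the others in that sum (240 per 100000, exact Poisson 95% interval 175 to 321, against 183 ± 21.6, SD, n = 3), but its interval took in NELFA and NELFB. Hexim1, which encodes an inhibitor of P-TEFb, had 6 sites in NELFE, 0 in NELFA, 0 in NELFB and 4 in NELFCD. Aff1, of the super elongation complex, had 9 against 5, 8 and 6. The 13 genes of histone 3′ end processing factors had 9 against 10, 12 and 11. Slbp, whose product binds the histone stem-loop, had 0 NELFE sites against 3, 4 and 3, a difference not detectable at this depth. Olfactory receptor genes, silent in fibroblasts, had 41 against 25, 38 and 39 over 1118 genes, or 0.46 times uniform density in NELFE and 0.38 times in the others on average.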

How the data were processed

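Integration sites were mapped in HITseq, in which a chromatin protein fused to LEDGF-IBD (the integrase-binding domain of LEDGF) directs HIV integration; junctions were amplified by linker-mediated PCR with nesting and sequenced in pairs, per the labels' protocols. The deposited files hold genomic positions of junctions, 1 per line, on mm9 per the submitters' processing notes; the aligner is not given in the sources used here, nor is the meaning of 2 whole numbers after each read name. A first number under 2 did not occur in any of the libraries. Distinct combinations of chromosome, position and strand on chromosomes 1 to 19 and X were counted as sites, and other entries were left out. All larger libraries, those of SPT5, Integrator and SOSS included, were thinned at random (seed 1) to the size of NELFE. Genes came from the GENCODE annotation of the same assembly. Windows reached 5 kb each side of a gene, or 1 kb each side of a start or end. Shares carry exact binomial (Clopper-Pearson) and counts exact Poisson 95% intervals, which cover counting error only, since PCR products are not independent molecules. Replicate numbers are 1 throughout and only name a library.

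Genes and 1-Mb regions were compared with limma 3.58.1 (trend and robust) in R 4.3.3 on log2 of sites per 100000 plus a pseudocount of 1, for features with a mean of at least 5 sites, with Benjamini-Hochberg adjustment and a threshold of 0.05; the script was tested on simulated data. The spread in that fit is the spread between the 3 other fused subunits, and NELFE was assumed to vary like them. Python 3.11.15, pysam 0.24.0 and scipy 1.17.1 did the rest. Named genes were the 10 with the most NELFE sites (1 for each set of overlapping windows), up to 10 largest differences in each direction among genes where NELFE lay outside the range of the others, and in each gene list the 2 to 4 members where the NELF libraries together had most sites; 1 gene that this rule names is not reported here. The members, lists and tests were chosen with earlier results of these data known. Alternatives were no thinning, seed 2, merging of sites within 10 bases, sites with a first number of at least 5, other windows, filters and pseudocounts, all 11 libraries in the fit, and leaving out each library.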

Additional observations from a re-analysis of the deposited data

Results flagged for a closer look

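The gap of 1 library from the other NELF libraries was compared with the range of all 4 for 126 reported shares, lists, loci and genes. Such a gap is expected by chance in about 1 of 20 series that were not chosen by their values. Of the 126, 11 stood out, 6 of them for NELFE. The rate does not hold for genes named for large NELFE differences, which include Fam190a, Thoc6 and Hcfc1r1. Genes with 1 to 5 sites step in whole sites, and neighbouring genes share sites. No cause was tested.

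NELFE stood apart at the histone locus from Hist1h2ah to Hist1h2bj with 160 sites per 100000 (others 85.3 to 96.0) and at Fam190a with 69.3 (others 16.0 to 21.3). At that locus the others held 92.1 to 113 without thinning and 90.7 to 123 with another seed. NELFE stayed highest there, but no longer stood out by this rule. It was low at Thoc6 with 10.7 (others 42.7) and at Hcfc1r1 with 10.7 (others 37.3 to 42.7), which lie side by side. Among marker genes of other cell types it had 0 at Ptprc, a leukocyte marker, where each of the others had 5.33, and 5.33, a single site, at Tubb3, a neuronal tubulin gene, where the others had 0.

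The remaining series stood out for other subunits. NELFB was high within 5 kb of gene ends (19.3%, others 17.0% to 17.2%) and at Snhg7, a snoRNA host gene (26.7 sites per 100000, others 10.7). NELFCD was low at the locus from Hist1h2bl to Hist1h2bm with 37.3 sites per 100000 (others 112 to 123). Without thinning NELFCD had 58.2 there (others 90.4 to 123), and with another seed 85.3 (others 96.0 to 123). NELFCD stayed lowest at that locus, but no longer stood out by this rule. It was high at Srrt, a factor of the cap-binding complex, with 21.3 (others 10.7), and at Alb, a liver marker, with 5.33 (others 0).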

How the results depend on the processing

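No paired analysis was possible because every protein has 1 library and the number 1 is only a name. Of 52 alternatives for the shares and densities, 47 kept their direction and stayed within the spread of the other subunits, among them every one run for starts, gene bodies, neighbouring sites and histone density. At gene ends the difference of 0.60 percentage points became 0.31 with a first number of at least 5, -0.82 within 5 kb, -0.042 without histone windows and -1.53 with both (the last chosen after seeing the data); snRNA density moved from a log2 ratio of 0.21 to 0.62 within 1 kb. The limma count of 0 genes became 14 at a mean of at least 2 sites (2356 tested, 14 lower, 13 of them without a NELFE site) and 1 within 1 kb (0610009L18Rik, lower), and the count of 0 regions became 3 without thinning (all lower); the cause was not tested. Without NELFA, NELFB or NELFCD both counts stayed at 0. Of 435 refits of 40 named genes, Hist1h1d reversed to -0.28 within 1 kb, Fgfr2 and Neat1, near 0, also changed sign, and Stat6 passed at a mean of at least 2 sites (adjusted p = 0.022). Alternatives chosen after seeing the data gave 40 to 47 histone genes with NELFE above the others and 4 to 12 below (12 without NELFCD, 7 without thinning). Loci above were 9 to 11 (11 without NELFB) and loci below 0 (seed 2) to 4 (without NELFCD). Depth limits single genes, where 1 site is 5.33 per 100000. A gene without a NELFE site reached the mean of 2 only through the other libraries. The size of its log2 difference depends on the pseudocount, so such calls lend no support to a lower NELFE.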

Other observations

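Starts of long intergenic noncoding RNA (lincRNA) genes, which are transcribed by RNA polymerase II, again had the lowest share in NELFE of the 4 NELF libraries. Within 1 kb of them lay 0.944% of NELFE sites (exact binomial 95% interval 0.810 to 1.09), 1.39% of NELFA, 1.58% of NELFB and 1.37% of NELFCD sites, and 1.61% of SPT5 sites. Some of these windows also cover protein-coding starts.

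The windows that passed at a mean of at least 2 sites held few sites in every library. Those without a NELFE site reached that mean only through the other libraries, so their place below the others is no separate support. Bad, whose product promotes apoptosis, had 0 NELFE sites against 6, 4 and 5 in NELFA, NELFB and NELFCD. Hdac7, a histone deacetylase gene, had 0 against 4, 5 and 4, and Chd3, a chromatin remodeller gene, 0 against 7, 3 and 5. A count of 0 allows up to 16.0 sites per 100000.

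Bases at the deposited positions differed between the strands and between libraries. Read along the strand of the site, G stood at the deposited base itself in 43.4% of plus-strand NELFE sites and 1 base further along in 43.2% of minus-strand NELFE sites, so the 2 strands were 1 base apart in all 4 NELF libraries. At the same base T stood in 12.4% of plus-strand sites in NELFE, 11.3% in NELFA, 12.1% in NELFB and 21.7% in NELFCD. No result above turns on single bases.

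Exactly shared positions were few. Of the NELFE sites, 26 were also in NELFA, 36 in NELFB and 62 in NELFCD at the same base and strand, before thinning.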
